A study of Bos grunniens with 6 samples.

Results

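The genes described here code for the axoneme (the microtubule core of cilia and of the sperm tail), for the transport machinery of cilia, and for the dynein and kinesin motors with the tubulins they run on. They were taken from the m6A peak list of cattle-yak testis by their symbol, which had to begin with a family name such as DNAH, DNAI, CFAP, RSPH, IFT, BBS, TEKT, TTLL, KIF, KLC, DYNC, DCTN or TUB. This gave 124 gene identifiers with 111 symbols, out of 8986 identifiers that carried a peak (1.38%), and 247 of the 16186 listed peaks (1.53%). All 124 also had an expression value. The rule reads symbols and no measured value, but a gene needed a listed peak to carry a symbol, and family members without a peak were not analysed here. Of 85 textbook genes of these families, 54 were in the set.

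Testis tissue was collected by castration from 3 healthy cattle-yaks, the hybrid of cattle and yak whose males are sterile, aged 5 years and named TES5, TES6 and TES7. RNA fragments carrying N6-methyladenosine (m6A), a methyl mark on adenosines of mRNA, were pulled down with an antibody, and each animal gave 1 immunoprecipitated (IP) and 1 input library. All 3 animals form 1 untreated group, so no comparison between conditions was possible, and each value below is a description with no test. The peak list is common to the 3 animals and holds no enrichment per animal, and the spread between animals is known only for expression in the input libraries, given as FPKM (fragments per kilobase of transcript, scaled to the fragments of the library).

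A motile axoneme is built from doublet microtubules that carry dynein arms. The heavy chains of these arms hold the motor, intermediate and light chains anchor and tune it, and assembly factors fold the arms in the cytoplasm. Radial spokes and the nexin-dynein regulatory complex (DRC) keep the doublets in register, and tektins and many cilia- and flagella-associated proteins (CFAP) line or brace the tubules. Intraflagellar transport (IFT) proteins carry these parts along the growing cilium and the BBSome sorts membrane cargo. Kinesins and cytoplasmic dynein serve all cells, among others in the spindle of dividing cells. In the testis, most axonemal genes are switched on in meiotic cells and spermatids, ahead of the growth of the sperm tail, and they are also used by the ciliated cells of the ducts that lead out of the testis.

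The m6A peaks on these genes lay mostly in the exon class, and few were annotated to the last exon. ChIPseeker, an annotation program, had put 193 of the 247 peaks in exons (78.1%, Wilson 95% interval 72.6 to 82.8), 34 in 3′ UTRs (13.8%, 10.0 to 18.6) and 20 in 5′ UTRs (8.10%, 5.30 to 12.2). Over all listed peaks these shares were 70.3%, 20.8% and 8.82%. The share in 3′ UTRs was thus below that of all peaks by more than the counting error, which is the only error that these intervals cover, and the share in 5′ UTRs was within it. Among peaks of at most 1000 bp, the 3′ UTR share was 22.8% on the set (18 of 79, 14.9 to 33.2) and 28.1% over all peaks, a difference within the counting error. In transcripts with 3 or more exons, 6 of 185 exon class peaks were annotated to the last exon (3.24%), against 11.6% of all such peaks. Each peak carries a single exon label, so a wide peak may cover later exons too. A BBS2 peak labelled exon 16 of 17, for example, ran from 96.1% to 99.997% of the gene's span, introns included. These labels thus do not show how many peaks reached the last exon. Since these genes have many exons, the share that a last exon would hold if every exon were equally likely was 7.60% for the set and 10.5% for all peaks.

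The peaks were also wide. The listed intervals run over introns, and the median width was 2708 bp on the set (quartiles 599 and 7510 bp) against 1022 bp over all peaks. Only 79 peaks of the set (32.0%) were at most 1000 bp wide, against 49.8% of all peaks. The median listed span of the genes, introns included, was also longer, at 42376 bp against 28454.5 bp. Among peaks of at most 1000 bp, 5 of 51 were annotated to the last exon (9.80%, Wilson 95% interval 4.26 to 21.0), against 25.6% of all peaks of that width. Equal exons would give 11.7% and 12.8%.

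The 6 axonemal groups (dynein heavy chains, dynein intermediate and light chains, assembly factors, radial spoke and DRC proteins, CFAP proteins and tektins) held 67 of their 78 peaks in exons and 5 in 3′ UTRs (6.41%, 2.77 to 14.1). The 7 remaining groups held 126 of 169 peaks in exons and 29 in 3′ UTRs (17.2%, 12.2 to 23.6). These intervals overlap. The groups were formed by role, and they were joined into these 2 sets after the values had been seen. Among the 5 groups with the most peaks, the IFT and BBSome genes had the highest share in 3′ UTRs, 8 of 33, and cytoplasmic dynein and dynactin the highest in 5′ UTRs, 6 of 17.

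**Figure D1:**
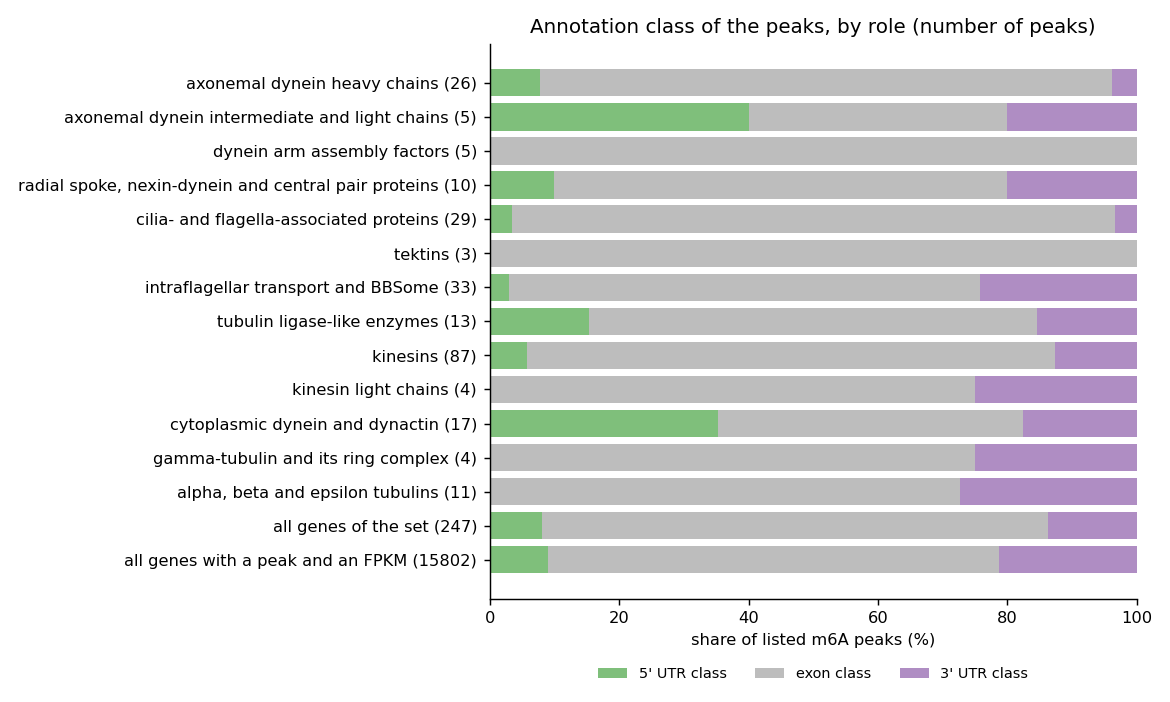
Share of the listed m6A peaks (%, horizontal axis) in the 5′ UTR, exon and 3′ UTR classes for each role group, with the number of peaks in brackets. The exon class takes 78.1% of the 247 peaks of the set and 27 of the 29 peaks on CFAP genes. The 3′ UTR class takes 1 of 26 peaks on heavy chains and 1 of 29 on CFAP genes, and several other groups have too few peaks to set against all genes.

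Most genes of the set had few peaks. A single peak was listed for 57 of 124 genes (46.0%, 37.4 to 54.7), against 54.0% of all identifiers with a peak. There were 2 peaks for 36 genes (29.0%, against 26.5%) and 3 peaks for 19 (15.3%, against 11.5%). Exon class peaks alone were listed for 80 genes (64.5%), against 57.9% of all identifiers with a peak. The 12 genes with 4 or more peaks made up 9.68% of the set, close to the 7.92% of all identifiers with a peak. DNAH11, a heavy chain of the outer dynein arm, had 9 peaks along a span of 403 kb. Of these, 8 were annotated to exons 13 to 79 of 84, at chr4:97250760-97593991 (build LU_Bosgru_v3.0), and the remaining peak, chr4:97650684-97650884, was in the 5′ UTR class. KIF9, a kinesin of the central apparatus of motile cilia, also had 9 peaks, all in the exon class. For 6 of these 9 the annotated exon belonged to another identifier, ENSBGRG00000015668, which has no symbol in the list, so their assignment to KIF9 is uncertain.

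KIF21A, a kinesin that restrains microtubule growth, had 5 exon peaks, annotated to exons from 6 to 37 of 38. TTLL5, a glutamylase that adds glutamate chains to tubulin, had 5 peaks that reached from the 5′ UTR to the 3′ UTR, the widest 87543 bp. TUBB2A, a beta-tubulin, had 3 exon peaks and 2 in the 3′ UTR. The other genes with 4 peaks were DNAH9, IFT172, DRC7, KIF21B, KIF27, BBS12 and KIF26A (ENSBGRG00000005179). The IFT172 peaks, on a large subunit of the transport train, were all internal, in exons 23, 25, 34 and 37 of 48.

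**Figure D2:**
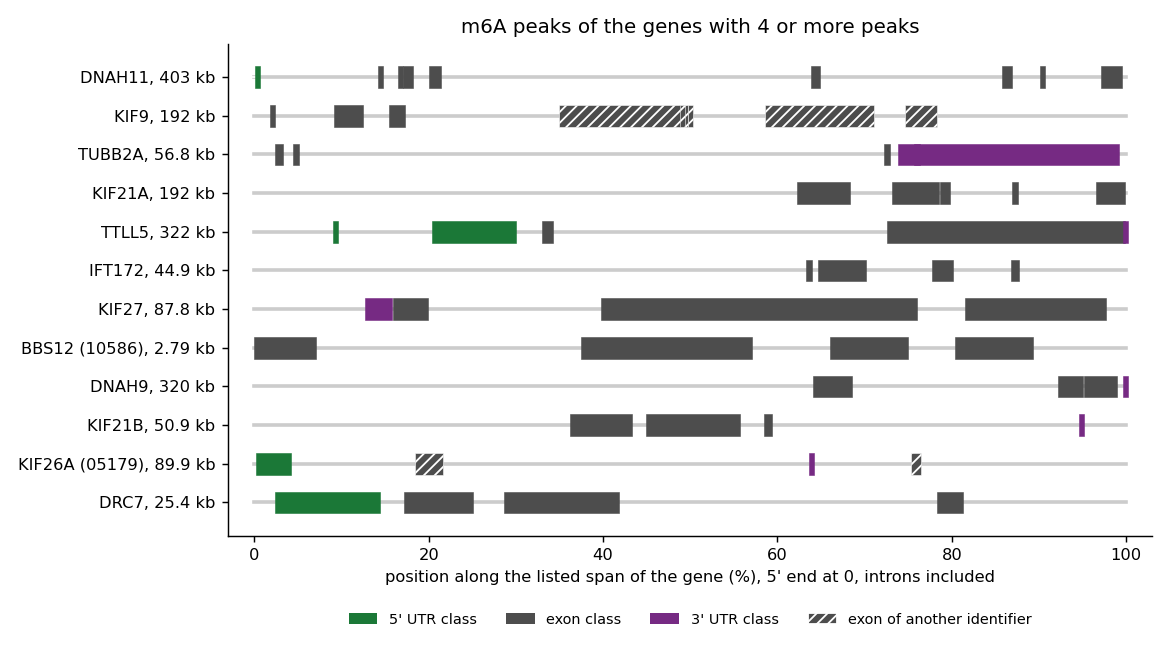
Listed m6A peaks of the 12 genes with 4 or more peaks, along the listed span of each gene (%, 5′ end at 0, introns included, length of the span beside the name, narrow peaks drawn at a minimum width). Colours mark the annotation class, and hatching marks peaks whose exon belongs to another identifier, among them 6 of the 9 peaks of KIF9. The 9 peaks of DNAH11 were annotated from the 5′ UTR to exon 79 of 84.

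Some annotations were weak. Of the 193 exon peaks, 12 were on an exon of another identifier (6.22%, against 2.77% over all exon peaks) and 4 on a transcript with no gene identifier. Of these 4, 3 did not touch the listed transcript of their gene, 2 on KIF26A ENSBGRG00000005153 and 1 on RSPH3. Of the 12, the peak of KIF3A ENSBGRG00000002631 (45094 bp, annotated to an exon of the other KIF3A identifier) covered the whole listed transcript, as did the peak of IFT43 (117487 bp). The widest peak, 268034 bp at chr4:116379294-116647327, was listed in the 5′ UTR class of DYNC1I1, an intermediate chain of cytoplasmic dynein. No peak of the set overlapped a peak of another of its genes. In the set, 10 symbols stood on more than 1 identifier (23 identifiers in all), and reads may be split between such identifiers where they are alike, and between the near-identical tubulin genes. The identifiers of BBS12, DYNC1H1, KLC4, CFAP99, CFAP126, KIF5B and KIF26A did not all lie on the same strand. Identifiers on opposite strands need not be copies of the same gene. Whether each holds the right symbol was not tested.

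In expression, these genes were below the usual level of genes with a peak. An FPKM of at least 1 in every input library was reached by 95 of 124 genes (76.6%), whereas 86.9% of all genes with a peak reached it. TES7 weighed most in this, as 118, 115 and 98 genes reached 1 FPKM in TES5, TES6 and TES7. Below 1 FPKM in every library were 3.23% of the set, fewer than the 7.72% of all genes with a peak. The median of the mean FPKM was 4.58, against 7.36 for all genes with a peak. Levels differed between the roles of the genes. Median FPKM was 1.89 over the 38 genes of the axonemal groups and 6.65 over the other 86. Since bulk tissue was measured, a low level cannot tell fewer cells of a type from less RNA per cell.

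**Figure D3:**
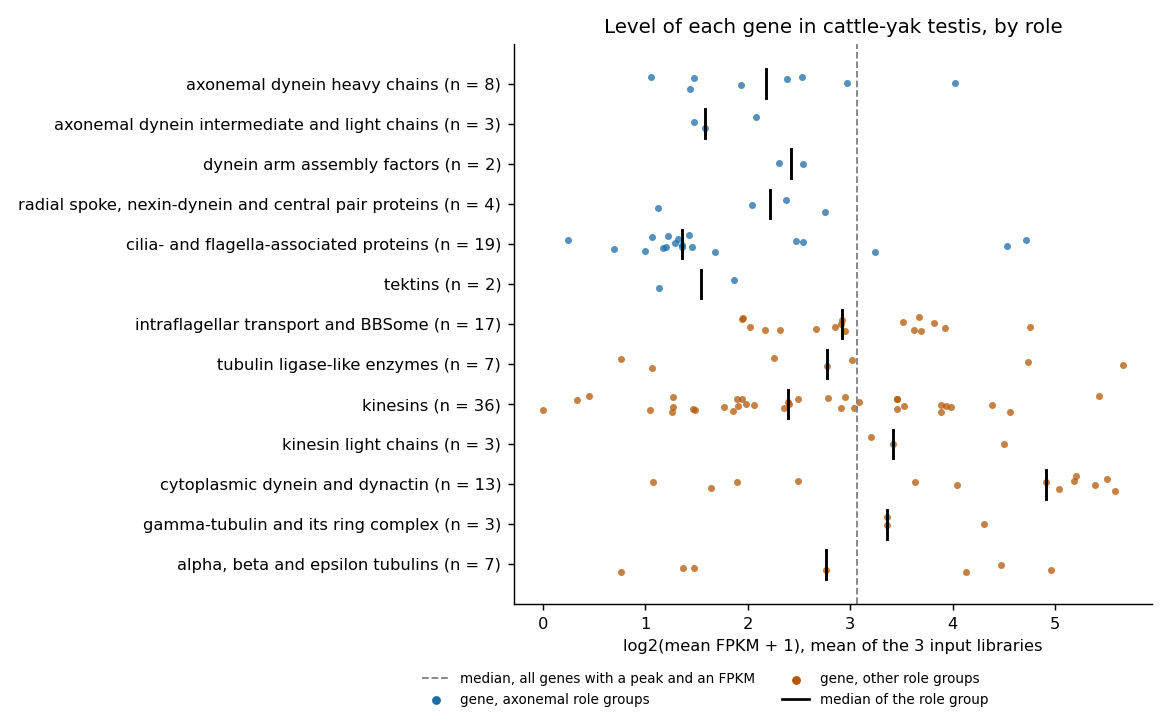
Level of each gene, as log2(mean FPKM + 1) over the 3 input libraries (horizontal axis), by role group, with the number of genes in brackets. Black bars are medians of the groups and the dashed line is the median of all genes with a peak and an FPKM, 7.36 FPKM before the log. Cytoplasmic dynein and dynactin lie furthest to the right (median 29.1 FPKM) and CFAP genes furthest to the left (median 1.56 FPKM).

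Cytoplasmic dynein and dynactin had the highest median of the 13 groups, 29.1 FPKM over 13 genes. DYNC1LI2, a light intermediate chain, was at 45.1, 45.8 and 50.2 FPKM in TES5, TES6 and TES7 (47.0 ± 2.80, SD, n = 3). DYNC1H1 (ENSBGRG00000013418), the motor chain of cytoplasmic dynein, was at 39.5, 45.3 and 48.7 (44.5 ± 4.64), and DCTN2, the dynamitin subunit of dynactin, at 40.4, 39.9 and 42.2 (40.8 ± 1.20). The range of DYNC1H1 overlapped those of both other genes, so their order is not fixed by these animals. Among the tubulin ligase-like enzymes, TTLL12 had the highest mean of the whole set, at 46.6, 50.5 and 52.3 FPKM (49.8 ± 2.95), followed within that group by TTLL4, a glutamylase, at 25.6 ± 1.49. TTLL5 was at 7.17, 6.52 and 3.77 FPKM.

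Kinesins had a median of 4.26 FPKM over 36 identifiers, and KIF22, KIF20A and KIFC1 were the highest. KIF22, which pushes chromosome arms in the spindle, was at 46.9, 36.2 and 43.2 FPKM (42.1 ± 5.42). KIF20A, which acts in cytokinesis, was at 27.5, 18.9 and 21.1 (22.5 ± 4.47) and KIFC1, a minus-end-directed kinesin of the spindle poles and of shaping spermatids, at 22.7, 17.1 and 19.8 (19.9 ± 2.81). KIF22 was above KIF20A in every animal, while the ranges of KIF20A and KIFC1 overlapped. The mitotic kinesins KIF11, KIF23 and KIF18A were lower, at 6.53 ± 0.459, 7.49 ± 0.921 and 1.80 ± 0.175 FPKM. Of the motor subunits of ciliary transport, KIF3B was at 13.8 ± 2.26 FPKM and the longer KIF3A model (ENSBGRG00000002563) at 7.20 ± 0.753. KIF26A was split over 4 identifiers, of which ENSBGRG00000005153 was listed at 0 in every library, although 2 peaks were assigned to it.

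Intraflagellar transport and BBSome genes had a median of 6.57 FPKM over 17 identifiers. BBS2, a core BBSome subunit, was the highest at 25.5, 26.3 and 26.3 FPKM (26.0 ± 0.455). Its 2 peaks lay at chr20:23599856-23601096 and chr20:23610061-23615710, annotated to exons 16 and 7 of 17. IFT20, which links the Golgi to the cilium, was at 15.1, 11.3 and 9.44 FPKM (12.0 ± 2.91), with its only peak in the 3′ UTR, at chr19:49265317-49266079. IFT88 (6.57 ± 0.859), IFT172 (5.34 ± 0.871) and IFT81 (6.20 ± 1.58) overlapped in their levels. DYNC2H1, the motor that returns the trains to the cell body, was at 3.06 ± 0.511.

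Tubulins ranged from TUBB2A, at 32.6, 26.1 and 31.6 FPKM (30.1 ± 3.51), and TUBA3D, an alpha-tubulin, at 24.0, 18.1 and 21.7 (21.2 ± 2.98), to TUBAL3 below 1 FPKM on average. TUBE1, the epsilon-tubulin of centrioles, was at 5.78 ± 0.269. The ring complex genes, which seed microtubules, were led by TUBGCP3 at 18.7 ± 0.184 FPKM. The kinesin light chains, which bind cargo, had a median of 9.72 FPKM, and KLC3 itself was at 9.72 ± 1.13.

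Axonemal genes were mostly low. Of 8 identifiers for heavy chains, DNAH5 (ENSBGRG00000019222), a motor of the outer arm, was the highest, at 14.0, 16.0 and 15.9 FPKM (15.3 ± 1.15), and its second identifier was at 4.78 ± 0.642. DNAH8, a heavy chain of sperm tails, was at 7.38, 6.21 and 6.96 FPKM (6.85 ± 0.592), with 1 peak in exon 3 of a listed transcript of 4 exons. DNAH1 and DNAH17 were near the limit of 1 FPKM, as given below by animal. Among the 19 CFAP identifiers, CFAP36 (25.3 ± 8.57 FPKM) and 1 CFAP99 identifier (ENSBGRG00000016319, 22.1 ± 1.02) stood far above the group median of 1.56 FPKM. The other CFAP99 identifier (ENSBGRG00000015852), on the opposite strand, was near that median, at 1.49 ± 0.325. The assembly factors DNAAF2 and DNAAF4 were at 4.81 ± 0.862 and 3.94 ± 0.206.

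The animals differed more in the axonemal genes as a whole than in the other groups, though the dynein heavy chains were split. Of the 38 axonemal genes, 25 (65.8%) were highest in TES5, intermediate in TES6 and lowest in TES7, an order found in 18.8% of all genes with a peak, and 2 had the reverse order, which 21.2% of all genes with a peak had. TES5 alone was above TES7 in 31 of the 38, and in 45.5% of all genes with a peak. By group the first order held in 15 of 19 CFAP genes, 3 of 3 dynein intermediate and light chains and 3 of 4 radial spoke and DRC genes, but in 2 of 8 heavy chains, whose median log2 difference between TES5 and TES7 was 0.13, and in 1 of 2 assembly factors and 1 of 2 tektins. In the other 7 groups, 27 of 86 genes (31.4%) had the first order and 9 the reverse. The median of log2(FPKM + 1) in TES5 minus that in TES7 was 0.71 over the axonemal genes, 0.09 over the other groups and −0.03 over all genes with a peak. With the genes of at least 1 FPKM in every library alone, which leaves 21 of the 38, the axonemal median was 0.34. Between TES5 and TES6 it was 0.28 over all 38, and between TES6 and TES7 0.45. Each animal is 1 sample, so these differences between animals have no replicate of their own.

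**Figure D4:**
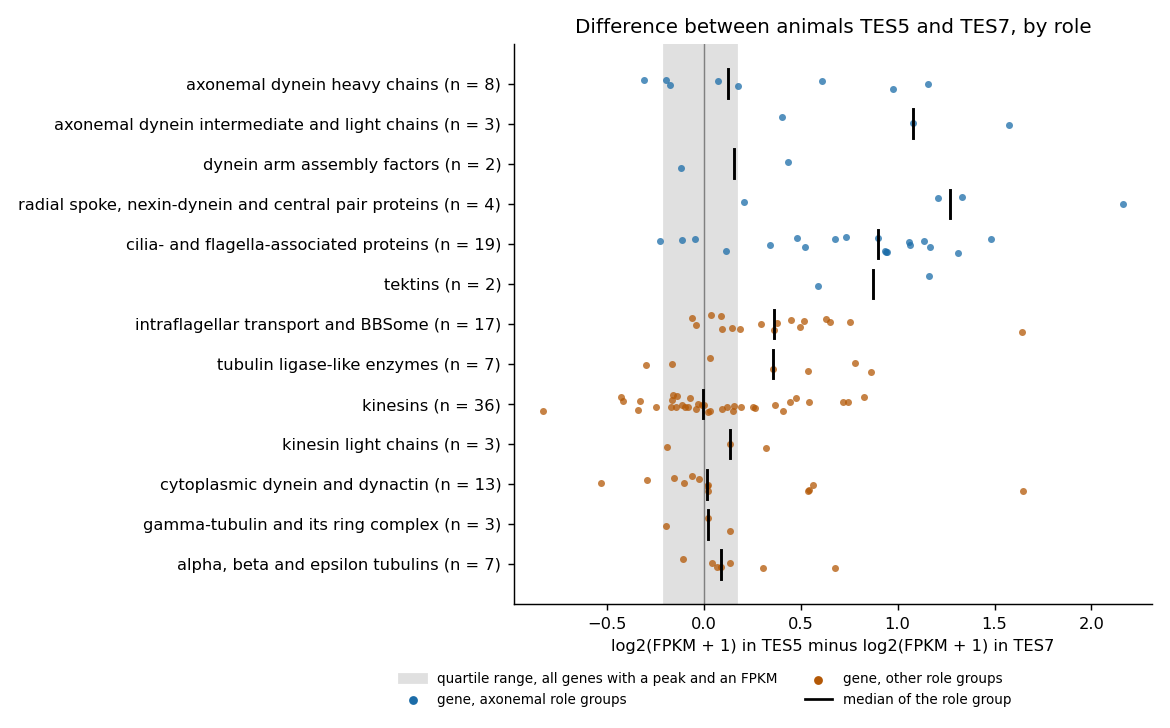
Difference between animals for each gene, as log2(FPKM + 1) in TES5 minus that in TES7 (horizontal axis), by role group with the number of genes in brackets. Black bars are group medians and the grey band is the quartile range of all genes with a peak. Radial spoke and DRC genes (median 1.27), dynein intermediate and light chains (1.08), CFAP genes (0.90), tektins (0.87), and also IFT and BBSome genes (0.36) and tubulin ligase-like enzymes (0.36) lie to the right of the band, while heavy chains (0.13), assembly factors (0.16) and kinesins (−0.01) lie inside it.

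An FPKM at least 2-fold higher in TES5 than in TES7 was found for 26 of the 124 genes, and for 4.26% of all genes with a peak. Of these 26, 20 were axonemal (52.6% of that group) and 6 were not. Most of the 20 were below 1 FPKM in TES7, where a ratio is unsure. The share over all genes with a peak is not matched for level. Median FPKM was 1.89 in the axonemal groups and 7.36 over all genes with a peak. Among the axonemal groups, 2 of the 8 heavy chains and 0 of the 2 assembly factors passed. In the opposite direction 2 genes passed 2-fold, DCTN4 (ENSBGRG00000006686) and KIF5B (ENSBGRG00000024792), both further identifiers of symbols whose main identifier had a higher level, and the background was 1.72%. The genes just inside the limit were TEKT3 (2.06-fold) and CFAP221 (2.01-fold), and those just outside were KIF9 (1.98-fold) and CFAP36 (1.92-fold). The genes named in the next paragraphs for this difference were picked with their values in view.

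RSPH1, a radial spoke head protein, showed the widest gap on the log2 scale. Its FPKM was 10.7 in TES5, 4.89 in TES6 and 1.61 in TES7 (5.74 ± 4.61, SD, n = 3), a 6.65-fold ratio between the extremes. The SD was thus nearly as large as the mean. RSPH1 carried an exon peak at chr1:155706995-155710356, in exon 3 of 9, and a 3′ UTR peak at chr1:155696969-155702933. DRC1, which scaffolds the nexin-dynein complex, was at 4.85, 3.17 and 1.32 FPKM, and DRC7, of the same complex, at 2.11, 1.11 and 0.343. RSPH3, another spoke protein, was at 4.10, 5.07 and 3.41 and did not share the order.

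Dynein arm chains split within the group. The intermediate chain DNAI1 was at 3.57, 1.88 and 0.538 FPKM, and the inner arm light chain DNALI1 at 2.81, 1.72 and 0.801. DNAI2, the partner of DNAI1, had the same order but a smaller gap, at 3.87, 3.10 and 2.69. Among the heavy chains, DNAH1 of the inner arm was at 1.64, 1.24 and 0.342 and DNAH17 of the outer arm at 2.39, 2.18 and 0.524, so that TES5 and TES6 were close and TES7 stood below. DNAH2 was at 3.31, 3.33 and 1.82. DNAH5, DNAH8 and DNAH11 had no such gap, and DNAH11, at 3.48, 5.07 and 4.13 FPKM, was lowest in TES5.

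Of the 19 CFAP genes, 11 passed 2-fold. CFAP52, a protein inside the doublet microtubules, was at 2.69, 1.71 and 0.320 FPKM, and CFAP45, of the same location, at 1.63, 1.16 and 0.197. CFAP58 had the largest ratio of the set, 10.6-fold, but at low values of 1.12, 0.633 and 0.105. CFAP70 was the highest of the 11, at 7.33, 4.42 and 2.71 FPKM. CFAP36 was at 34.8, 22.9 and 18.2 and stayed just under 2-fold. CFAP44 (3.86, 5.57 and 4.25) and both identifiers of CFAP126 were lowest in TES5. The tektin TEKT1, a filament of the doublet wall, was at 4.19, 2.43 and 1.32, and TEKT3 at 1.87, 0.787 and 0.910, with TES6 the lowest.

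**Figure D5:**
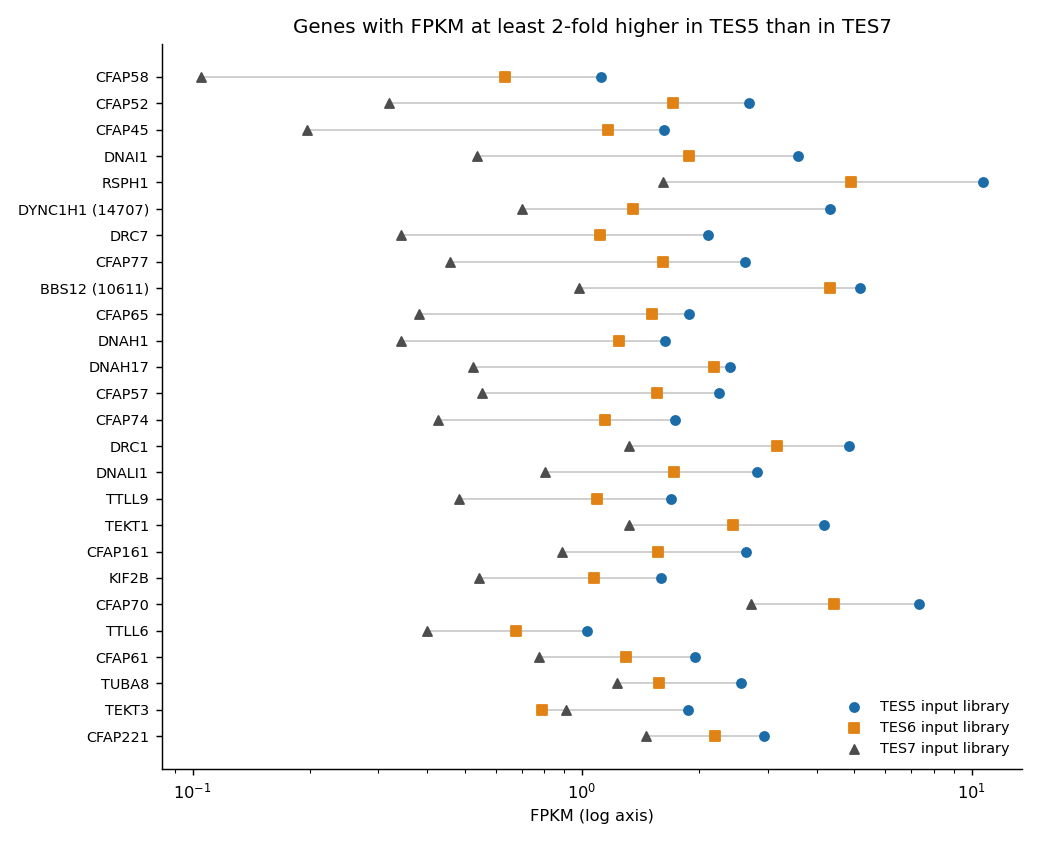
FPKM in each animal's input library (log axis) for the 26 genes with at least 2-fold more in TES5 than in TES7, sorted by that ratio, with the last digits of the identifier where a symbol stands on several. TES6 lies between the other animals for all but TEKT3, and most TES7 values are below 1 FPKM.

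The transport genes followed the order more weakly. Of the 17 IFT and BBSome identifiers, 10 were highest in TES5 and lowest in TES7 and the median log2 difference was 0.36, yet 1 alone passed 2-fold, the second BBS12 identifier (ENSBGRG00000010611) at 5.17, 4.34 and 0.980 FPKM. IFT52 was at 14.2, 11.7 and 8.02, and IFT81 at 7.64, 6.46 and 4.51. BBS2 and BBS10 showed no such gap. Outside transport, TTLL9 (1.69, 1.09 and 0.484), TTLL6, the spindle kinesin KIF2B (1.59, 1.07 and 0.545), TUBA8 (2.57, 1.57 and 1.23) and a short second DYNC1H1 identifier (ENSBGRG00000014707; 4.32, 1.35 and 0.699) completed the 6 non-axonemal genes.

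Kinesins as a group did not follow the order, with 7 of 36 genes, close to the 18.8% of all genes with a peak, and a median log2 difference of −0.01. Cytoplasmic dynein and dynactin had the order in 4 of 13 genes (30.8%) and a median of 0.02, and the main DYNC1H1 identifier was lowest in TES5. The alpha, beta and epsilon tubulins had it in 1 of 7 (median 0.09). Still, 6 of these 7 tubulins were highest in TES5, against 35.4% of all genes with a peak. Within the kinesins, KIF9, whose product works in motile cilia, was at 3.85, 3.05 and 1.95 FPKM, while those of dividing cells went both ways, with KIF20A, KIF2C, KIF22, KIF23 and KIF4A higher in TES5 than in TES7 and KIF11, KIF15 and KIF18B lower. The spread between animals, as the median coefficient of variation of genes with at least 1 FPKM in all libraries, was 19.9% in the axonemal groups, 12.9% in the others and 11.6% over all genes with a peak.

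The libraries as a whole were close. Their size factors by the median of ratios were 1.006, 1.005 and 1.002, and 12121, 12147 and 11906 of all genes with an FPKM reached 1 FPKM in TES5, TES6 and TES7. In the set 118, 115 and 98 genes reached it, a larger relative fall in TES7. Cell type markers could be read only where their symbol carried a peak. The Sertoli cell markers SOX9, WT1 and FSHR were at 26.7, 27.5 and 28.4 FPKM, at 24.0, 33.3 and 31.5 FPKM and at 6.19, 9.05 and 7.96 FPKM in TES5, TES6 and TES7, each lowest in TES5. STAR of Leydig cells was at 100.2, 107.7 and 111.9. Peritubular myoid markers (5 of 5) summed to 364.4, 415.3 and 394.5, endothelial markers (4 of 4) to 13.1, 14.7 and 11.8, and macrophage markers (3 of 4) to 11.7, 12.8 and 14.5.

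The summed markers of some germ cells and of ciliated cells were highest in TES5, but not all followed the axonemal order of animals. Spermatogonial markers (4 of 10, among them KIT and ZBTB16) summed to 21.1, 24.8 and 30.5 FPKM, lowest in TES5. Spermatocyte markers (5 of 10 symbols on 10 identifiers, among them SYCP1, SYCP3 and DMC1, with 1 SYCP2 identifier listed at 0) summed to 77.0, 50.4 and 56.5, highest in TES5. Only 2 of 15 spermatid markers carried a peak, ODF2 and TSSK1B, and they summed to 60.0, 45.0 and 30.3, with ODF2, a protein of the outer dense fibres and of centrosomes, at 44.0, 30.6 and 17.5. Their 3 identifiers all fell from TES5 through TES6 to TES7. Multiciliated cell markers (6 of 10) summed to 24.8, 16.1 and 12.6, but RSPH1 is itself an axonemal gene of the set, and the other 5 summed to 14.1, 11.2 and 10.9. Of the 6, 2 were highest in TES5, intermediate in TES6 and lowest in TES7. These were RSPH1 and FOXJ1, the master regulator of motile cilia, at 0.660, 0.562 and 0.267 FPKM. GMNC, at 2.54, 3.75 and 2.85, was highest in TES6, and MYB, PAX8 and TPPP3 were lowest in TES6. The part of these marked cell types in the result was not tested.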

How the data were processed

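Reads had been trimmed by the authors (Trimmomatic), cleared of ribosomal RNA (SortMeRNA) and aligned with HISAT2 (2.0.4) to the yak genome LU_Bosgru_v3.0 (Ensembl release 99). Peaks of IP over input were called with MeTDiff (fragment length 200 bp, peak p 0.01, FDR 0.05, then p of at most 0.05 and fold of at least 1.5) and annotated with ChIPseeker. The deposited peak list gives positions, widths and classes, with no score and no value per animal. The deposited FPKM values cover the 3 input libraries. The program behind them is not given in the sources used here, and depth cannot be read from them.

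Here, peaks and FPKM were joined by identifier with pandas. Shares carry Wilson 95% intervals for counting error only. Differences use log2(FPKM + 1). No test was made, since the 3 animals form 1 group. Named genes were, per role group, the highest, those with the most peaks and the most variable, plus textbook genes. Genes at 2-fold were added with their values known. The members, lists and this rule were chosen with earlier results of these data known. The calculations were tested on simulated data, and alternatives are given in the closing section. The summed level of the Sertoli cell marker list is not reported here.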

Additional observations from a re-analysis of the deposited data

How the results depend on the processing

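No paired analysis was possible because peaks carry no value for any animal and FPKM were given for input libraries alone. In all, 115 results were recomputed under 489 alternatives, of which 470 left them within the set limits, 19 moved them and 0 reversed them. The 84 named levels stayed within 1 SD in all 336, which are part of the 470. This outcome was largely fixed in advance. In a group this small, leaving out 1 animal cannot move a mean by 1 SD. The other alternative for these levels was rescaling by the size factors, which were all close to 1. These 336 thus say little about how firm the named levels are, and all 19 that moved were among the other results. Keeping peaks of at most 1000 bp left 79 peaks and gave shares of 22.8% in 3′ UTRs and 3.80% in 5′ UTRs. Weighting by width gave 68.4% in exons and 20.9% in 5′ UTRs, the latter carried by a few very wide peaks such as that of DYNC1I1. A minimum of 5 FPKM left 53 genes.

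Summing FPKM by symbol changed the median FPKM to 5.74 for the set, 2.82 for heavy chains, 6.20 for kinesins, 19.8 for kinesin light chains and 31.8 for cytoplasmic dynein and dynactin. Keeping genes with at least 1 FPKM in every library changed it to 6.72 for the set, 4.50 for heavy chains, 4.69 for CFAP genes, 5.87 for kinesins, 31.8 for cytoplasmic dynein and dynactin and 16.5 for tubulins, and the axonemal log2 difference between TES5 and TES7 to 0.34, since the genes removed are the low ones in TES7. Without that minimum the median coefficient of variation of the set was 19.0%. Leaving out each animal in turn gave 96 to 113 genes with at least 1 FPKM in every remaining library and a median FPKM of 4.42 to 4.62 for the set. The alternative settings for the orders and 2-fold counts, and for leaving out symbols on several identifiers, were partly added after seeing the data. FPKM and pooled peaks allow no interval for a peak's enrichment or for low genes.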

Other observations

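Genes outside the symbol rule that work in motile cilia mostly had the same order of animals. Of a list of 37 such genes, 20 symbols on 23 identifiers carried a peak, and 18 of the 23 were highest in TES5 and lowest in TES7 (18.8% of all genes with a peak), with a median log2(FPKM + 1) difference between these animals of 0.64. LRRC6, a dynein arm assembly factor, was at 9.84, 6.60 and 2.74 FPKM in TES5, TES6 and TES7, and AK8, an adenylate kinase of the axoneme, at 6.80, 5.81 and 2.35. CCDC39 and CCDC40, which set the repeat length of the axoneme, were at 1.41, 0.841 and 0.176 and at 6.84, 4.01 and 2.41. EFHC2, a protein inside the doublets, was the reverse, at 4.08, 6.14 and 7.11. The identifiers with the highest means of the list also lacked the order. These were AK7 ENSBGRG00000018205 (36.6, 33.5 and 39.9 FPKM) and GAS8 ENSBGRG00000022357 (22.4, 19.4 and 21.9).

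Genes of ciliary transport and the transition zone outside the rule (13 of 36 with a peak) showed the order in 8 of 13, with a median difference of 0.25 and 0 genes at 2-fold. Partners of dynein, kinesin and microtubules (22 of 38 with a peak) showed it in 6 of 22, with a median of 0.17. By the GO terms in the peak list, picked after the values had been seen, 12 of 20 further genes with the term axoneme had the order (60.0%, median 0.38), as had 5 of 5 with the term sperm flagellum (median 0.67) and 8 of 16 with spermatid development (50.0%, median 0.31). The share was lower for the wider terms, at 22 of 58 for cilium (37.9%, median 0.11), 20 of 55 for cilium assembly (36.4%, median 0.13), 36 of 104 for spermatogenesis (34.6%, median 0.11) and 22 of 80 for microtubule (27.5%, median −0.01). It was 9 of 17 for motile cilium, 4 of 8 for flagellated sperm motility and 12 of 48 for spindle. Kinesin complex and microtubule motor activity had 0 of 7 each (median −0.19 for both). Genes can hold several of these terms and may also be on the list of motile cilia genes above.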
